A study of Homo sapiens with 6 samples.

Results

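The genes described here encode the desmosomal cadherins (DSG2, DSG3, DSC2 and DSC3), the desmosomal plaque proteins (JUP, DSP, PKP1, PKP2 and PKP3) and PERP, a membrane protein of the desmosome. They were chosen by name, and all 10 were found among the 21462 genes of the count table. Poly(A) RNA was sequenced from A431 cells, a human epidermoid carcinoma line used as a keratinocyte model, in 3 control libraries (A431CT, labelled WT) and 3 Desmoglein-2 knockout libraries (Dsg2KO). The knockout cells were made by CRISPR/Cas9 editing and came to the study from another laboratory together with their controls. Both groups were grown in the same serum-containing medium, and no drug or siRNA was applied. The sources do not state how many clones the knockout line represents or where in DSG2 the edit lies. A difference between the groups therefore cannot be told apart from a difference between these particular lines. The study describes its experiments as at least 3 independent experiments or biological replicates, and its RNA sequencing as 3 biological replicates per condition. The labels do not tie each library to a separate culture, so p-values measure the spread between these libraries.

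Desmosomes are cell-cell junctions that anchor intermediate filaments, which are keratins in epithelia, to the plasma membrane. Desmogleins and desmocollins are calcium-dependent cadherins that bind across the gap between neighbouring cells. Inside the cell their tails bind plakoglobin (encoded by JUP) and plakophilins, and desmoplakin (DSP) links this plaque to keratin. DSG2 and DSC2 are found in most tissues with desmosomes, DSG3 and DSC3 in the basal layers of stratified epithelia, and DSG1 and DSC1 in their upper layers.

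The 4 desmosomal cadherin genes lie in a single cluster on chromosome 18 (GRCh38, GENCODE annotation). In the order of the chromosome, the cluster holds the 7 genes DSC3, DSC2, DSC1, DSG1, DSG4, DSG3 and DSG2. DSC3 (chr18:30989365-31042815) and DSC2 (chr18:31058840-31102522) are read from the minus strand, and DSG3 (chr18:31447741-31478702) and DSG2 (chr18:31498177-31549008) from the plus strand. The plaque genes are dispersed, with JUP at chr17:41754604-41786931, DSP at chr6:7541338-7586714, PKP1 at chr1:201283452-201332993, PKP2 at chr12:32790745-32896798 and PKP3 at chr11:392614-404908. PERP lies on the other arm of chromosome 6 from DSP, at chr6:138088505-138107419.

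Promoter sequences, from 250 bases before to 50 bases after the start of transcription, were read from RefSeq (GRCh38.p14) for 8 of the 10 genes. PKP2 and PKP3 were missing entries. The promoters of the targeted gene, of the other lower cadherin, of the highest called plaque gene by CPM and of PERP are shown because their transcripts carry the differences described here. Capitals mark the E-box CAGGTG or its reverse complement CACCTG, a motif that repressors of epithelial genes such as Snail and ZEB proteins are known to bind. All are written 5′ to 3′ on the strand of the gene.
DSG2, chr18:31497927-31498226, plus strand: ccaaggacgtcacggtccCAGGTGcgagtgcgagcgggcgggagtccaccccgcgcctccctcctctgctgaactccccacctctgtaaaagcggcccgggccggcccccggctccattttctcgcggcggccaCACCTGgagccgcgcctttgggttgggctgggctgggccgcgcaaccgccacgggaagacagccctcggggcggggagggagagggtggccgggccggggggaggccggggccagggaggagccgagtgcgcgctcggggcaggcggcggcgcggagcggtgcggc
DSC3, chr18:31042693-31042992, minus strand: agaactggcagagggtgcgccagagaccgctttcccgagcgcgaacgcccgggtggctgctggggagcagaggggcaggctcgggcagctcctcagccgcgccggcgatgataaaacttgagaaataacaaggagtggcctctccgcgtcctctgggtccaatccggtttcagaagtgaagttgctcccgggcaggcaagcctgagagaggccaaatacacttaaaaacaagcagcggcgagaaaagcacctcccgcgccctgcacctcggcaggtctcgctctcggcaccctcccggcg
DSP, chr6:7541421-7541720, plus strand: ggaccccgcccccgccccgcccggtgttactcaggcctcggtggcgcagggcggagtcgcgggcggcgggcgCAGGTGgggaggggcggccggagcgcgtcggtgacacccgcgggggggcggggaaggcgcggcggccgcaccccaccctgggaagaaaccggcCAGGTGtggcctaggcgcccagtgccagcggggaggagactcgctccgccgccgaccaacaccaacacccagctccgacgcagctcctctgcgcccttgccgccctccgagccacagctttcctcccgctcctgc
PERP, chr6:138107370-138107669, minus strand: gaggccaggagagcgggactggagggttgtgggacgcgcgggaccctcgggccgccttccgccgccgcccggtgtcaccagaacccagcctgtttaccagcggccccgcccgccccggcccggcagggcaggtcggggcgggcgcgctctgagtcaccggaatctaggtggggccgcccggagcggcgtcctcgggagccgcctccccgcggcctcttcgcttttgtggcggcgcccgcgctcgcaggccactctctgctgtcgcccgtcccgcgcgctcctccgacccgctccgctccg
The DSG2 promoter held the E-box 232 and 116 bases upstream of the start, and the DSP promoter held it 178 and 85 bases upstream. The DSC3 and PERP windows held none. DSC2 and JUP have 2 annotated starts each, and 1 window of each gene held an E-box, 156 bases upstream in DSC2 and 54 and 43 bases upstream in JUP. In all, 4 of the 10 windows held the motif, compared with 20.6% of 35116 human promoter windows of the same length. The genes with an E-box were DSG2, which was lower in Dsg2KO cells, DSP, which was higher, and DSC2 and JUP, which did not pass the test. The GC box (GGGCGG or CCGCCC) was present in 7 of the 10 windows, which belong to 6 of the 8 matched genes, and in 45.0% of all windows. A TATA box (TATAAA or TTTATA, in 11.5% of all windows), the Grainyhead-like site AACCGGTT (0.134%) and an NF-κB consensus site (11.3%) were absent from the windows of all 8 genes. These matches describe letters in the windows and say nothing of whether a factor binds there.

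Library totals ranged from 12845719 to 13650746 counts in A431CT cells and from 14786041 to 16255692 in Dsg2KO cells. Levels are given as CPM (counts scaled to the library total, with TMM factors), and 3 counts, the limit that a count of 0 allows, corresponded to 0.184 to 0.236 CPM, which covers counting error only. Of the 8 keratinocyte markers, 7 were expressed and their summed level was 10370 to 11080 CPM in A431CT and 10990 to 11360 CPM in Dsg2KO libraries. Most of this sum was EGFR (means of 8451 and 9134 CPM). Of these 7 markers, EGFR, CDH1 and LAMB3 were called higher, SFN (log2 fold change -0.46, edgeR adjusted p = 2.90e-07), COL17A1 (-0.38, edgeR adjusted p = 1.35e-05) and KRT5 (-0.13) were called lower, and 1 did not pass. The eighth, the basal keratin KRT14, was listed at 3 or fewer counts in every library, and its reads may be shared with near-identical copies. Of 5 fibroblast markers, 4 had at most 3 counts in every library and 2 were at 0. The summed leukocyte markers (PTPRC, CD3E, CD68) were 237 to 241 CPM in A431CT and 148 to 161 CPM in Dsg2KO libraries, nearly all of it CD68, a lysosomal protein of macrophages and other cells, with CD3E at 0. The 3 endothelial markers summed to 8.45 to 11.3 and 15.02 to 15.54 CPM. The 4 melanocyte markers summed to 3.02 to 4.50 and 3.42 to 3.85 CPM, and VIL1 with CDX2 to at most 0.433 CPM in any library. The part of these marker differences in the results was not tested. In bulk RNA, fewer cells that express a gene and less RNA per cell cannot be told apart.

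The targeted transcript differed more than that of any other desmosomal gene tested. DSG2 and, by smaller amounts, DSC3 and PERP were lower in Dsg2KO cells, DSP and PKP2 were higher, and DSG3, DSC2, JUP and PKP3 did not pass the test. PKP1 could not be tested. Of the 9 tested genes, 5 passed an adjusted p of 0.05 in edgeR's quasi-likelihood test, 2 higher and 3 lower. Over all 12857 tested genes 29.6% passed, 14.3% higher and 15.3% lower. Only DSG2 also passed the study's fold change minimum of 0.5 on the log2 scale, as did 6.03% of all tested genes. All 8 other tested desmosomal genes differed by less than that. The libraries of the groups did not overlap for 6 of the 9 genes, against 42.6% of all tested genes. Without DSG2, 4 of 8 genes passed and 5 of 8 did not overlap, and the median log2 fold change of these 8 was 0.02 (all tested genes, -0.0048).

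**Figure D1:**
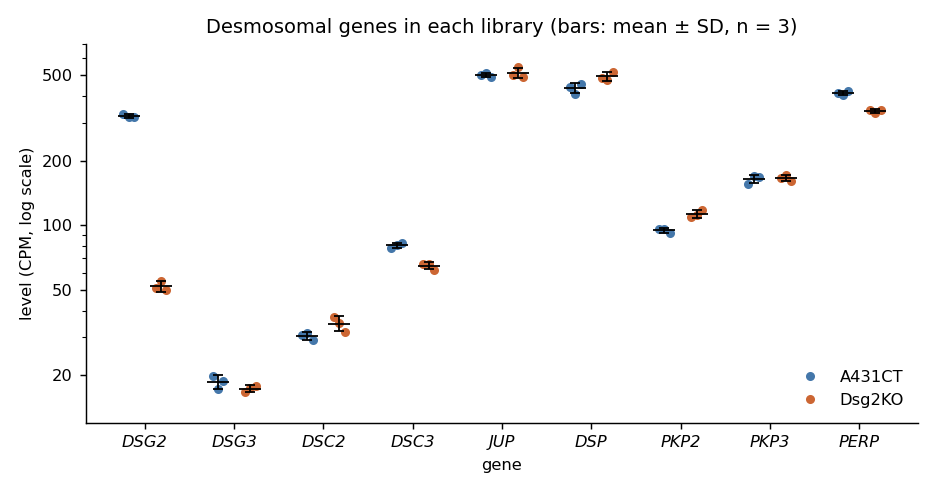
Level of 9 desmosomal genes (CPM, log axis) in each of the 3 A431CT and 3 Dsg2KO libraries, with the mean and SD of each group as bars. DSG2 falls from between 319 and 330 to between 49.7 and 55.2 CPM. The other 8 genes differ by less than 0.5 on the log2 scale. In 5 of them the groups do not overlap, against 42.6% of all tested genes. PKP1, with at most 2 counts in a library, is not drawn.

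DSG2 was the gene with the smallest p-value of all those tested. It had 4196, 4344 and 4112 counts in A431CT libraries and 758, 902 and 804 counts in Dsg2KO libraries. These counts corresponded to 330.0, 320.3 and 318.8 CPM and to 50.9, 55.2 and 49.7 CPM. Every Dsg2KO library was far below every A431CT library, so the libraries go with their labels. The mean fell from 323 ± 6.08 to 51.9 ± 2.88 CPM (SD, n = 3), which left 16.1% of the control level. The log2 fold change was -2.64 (SE 0.05, 95% interval -2.74 to -2.54, edgeR adjusted p = 1.29e-14). Between 758 and 902 DSG2 counts thus remained in each knockout library, and a gene-level count does not show whether these transcripts carry the edit. The antisense gene DSG2-AS1 overlaps the 3′ part of DSG2 and had no row of its own in the table. The sources used here do not say whether counting used strand, so reads from this partner cannot be told apart from DSG2 reads.

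DSC3, the desmocollin of basal keratinocytes, was the other cadherin whose transcript fell. Its level was 78.7, 80.5 and 82.3 CPM in A431CT libraries and 66.2, 66.3 and 62.1 CPM in Dsg2KO libraries. The groups did not overlap, and the spread within each was small against the gap. The mean changed from 80.5 ± 1.77 to 64.9 ± 2.39 CPM (SD, n = 3), to 80.6% of the control level, with a log2 fold change of -0.31 (SE 0.05, edgeR adjusted p = 2.58e-04). In every alternative setting DSC3 stayed below its control, by between -0.33 and -0.28 on the log2 scale.

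DSC2, the desmocollin of most epithelia, had 30.7, 31.6 and 29.2 CPM in A431CT libraries and 37.4, 35.1 and 31.9 CPM in Dsg2KO libraries. The lowest Dsg2KO library lay just above the highest A431CT library. The log2 fold change was 0.19 (SE 0.07, 95% interval 0.03 to 0.35), and edgeR's adjusted p over all genes was 0.0688. DSC2 passed the threshold when Dsg2KO replicate 3 was left out (0.25, adjusted p = 0.0292) or when libraries were scaled by total counts only (0.21, adjusted p = 0.0428), so its call rests on these choices. The antisense gene DSCAS overlaps the start of DSC2 and has no row of its own.

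DSG3, the target of autoantibodies in pemphigus vulgaris, was expressed at a low level, with 233 to 252 counts in A431CT and 249 to 289 counts in Dsg2KO libraries. This gave 19.8, 17.2 and 18.8 CPM in A431CT and 16.7, 17.4 and 17.9 CPM in Dsg2KO libraries, and the groups overlapped. The log2 fold change was -0.10 with a 95% interval of -0.29 to 0.09 (edgeR adjusted p = 0.449). A change within those bounds is therefore not excluded by these libraries.

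The remaining 3 cadherin genes of the cluster were at the limit of detection. DSC1 had at most 2 counts and DSG1 at most 2 counts in any library, and DSG4 had 0 counts in all 6. The desmosomal cadherins of the upper epidermal layers were thus not measurable in either group.

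Divided by the length of the exons, the order of the members in A431CT cells ran from JUP (101 CPM per kb of exon) and PERP (98.6), whose libraries overlapped each other, to PKP3 (43.4), DSG2 (34.0), DSP (32.0), DSC3 (10.5), PKP2 (9.21), DSG3 (3.34) and DSC2 (2.44). All neighbours in this order other than JUP and PERP were separated in every library. In Dsg2KO cells DSG2 moved down by 3 places, to 5.47 CPM per kb, below DSC3 (8.43) and above DSG3 (3.11) and DSC2 (2.78), and the libraries of the latter pair overlapped. The order depends on the length taken, because annotated exons include rarely used ones. With the longest transcript in place of all exons, DSG2 and DSC3 overlapped in Dsg2KO libraries, at 9.11 and 8.56 CPM per kb.

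The makeup of the cadherin transcripts differed accordingly. DSG2 supplied 68.2, 67.8 and 67.2% of the summed level per kb of the 4 expressed desmosomal cadherins in A431CT libraries and 26.9, 28.6 and 27.5% in Dsg2KO libraries. The mean share fell from 67.7 ± 0.492% to 27.6 ± 0.861% (SD, n = 3), and from 77.6 to 38.6% when the longest transcript was used as the length. With 3 libraries against 3, the smallest p an exact two-sided permutation test can give is 0.1, which is the value for this share. Because DSG2 is the edited gene and fell in every Dsg2KO library, this p-value adds nothing to the DSG2 result. By the length of all exons DSC3 then had the highest level of the 4, with 42.3 to 43.1% of the summed level in Dsg2KO libraries compared with 20.1 to 21.4% in A431CT libraries. With the longest transcript as the length this order turned, and DSG2 stayed above DSC3 in every Dsg2KO library (37.7 to 39.7% against 35.9 to 36.9%). By the length of all exons, DSG3 went from 6.18 to 6.97% to 15.01 to 16.80%, and DSC2 from 4.68 to 5.07% to 13.39 to 15.01%. These shares are fractions of a sum that holds DSG2, and their increase does not mean more transcript. The levels of DSG3, DSC2 and DSC3 together were 16.2, 16.1 and 16.4 CPM per kb in A431CT libraries and 14.6, 14.5 and 13.8 in Dsg2KO libraries. Their sum was therefore lower in every knockout library than in every control library. The means were 16.2 ± 0.169 CPM per kb in A431CT and 14.3 ± 0.429 in Dsg2KO libraries (SD, n = 3), a difference of -0.18 on the log2 scale.

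**Figure D2:**
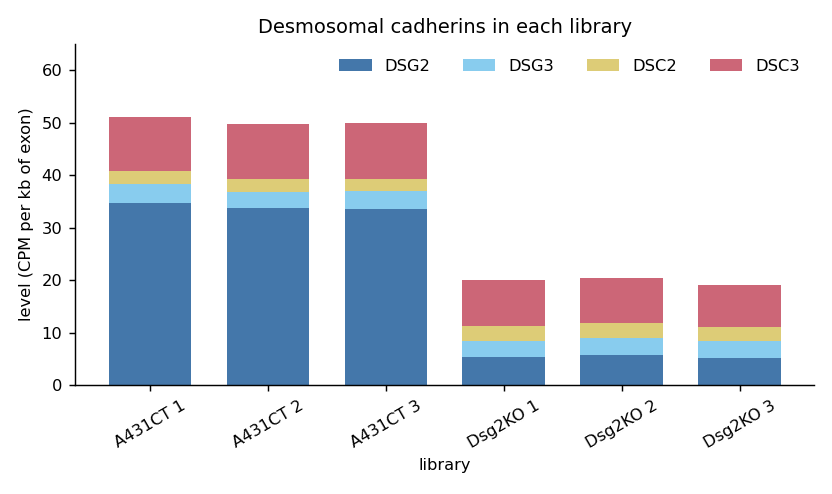
Summed level of the 4 expressed desmosomal cadherins (CPM per kb of exon, linear axis from 0) in each library, stacked by gene. The DSG2 part shrinks from between 33.6 and 34.8 to between 5.24 and 5.81 CPM per kb. The other 3 genes together lie between 16.1 and 16.4 CPM per kb in A431CT and between 13.8 and 14.6 in Dsg2KO libraries.

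Of the 2 desmocollins, DSC3 was called lower, while DSC2 had a positive log2 fold change that did not pass the test. The ratio of DSC2 to DSC3 counts was 0.390, 0.392 and 0.355 in A431CT libraries and 0.565, 0.529 and 0.513 in Dsg2KO libraries. This ratio does not depend on library scaling, and the groups did not overlap. It was chosen after the values of the genes were seen and is given without a test.

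Among the plaque genes, JUP encodes plakoglobin, an armadillo protein that binds cadherin tails in desmosomes and in adherens junctions. Its level was 499.9, 510.9 and 493.3 CPM in A431CT libraries and 503.8, 544.3 and 491.5 CPM in Dsg2KO libraries. The groups overlapped, and the second Dsg2KO library stood highest. The log2 fold change was 0.03, with a 95% interval of -0.05 to 0.12 (edgeR adjusted p = 0.576). Without Dsg2KO replicate 2 it was -0.0090, so no direction can be given for JUP.

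DSP encodes desmoplakin, the plakin that ties the plaque to intermediate filaments. Its level was 441, 410 and 456 CPM in A431CT libraries and 488, 475 and 519 CPM in Dsg2KO libraries. All Dsg2KO libraries lay above all A431CT libraries, although the gap between the groups was smaller than the range within either. The mean rose from 436 ± 23.1 to 494 ± 22.5 CPM (SD, n = 3), to 113% of the control, with a log2 fold change of 0.18 (SE 0.04, edgeR adjusted p = 0.00574). The antisense gene DSP-AS1 overlaps the start of DSP and has no row of its own, so its reads cannot be told apart from those of DSP.

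PKP2, the plakophilin of simple epithelia, heart and basal keratinocytes, rose as well. Its level was 96.0, 96.4 and 91.8 CPM in A431CT libraries and 109, 111 and 118 CPM in Dsg2KO libraries, and the groups did not overlap. The mean rose from 94.8 ± 2.57 to 113 ± 4.76 CPM (SD, n = 3), with a log2 fold change of 0.25 (SE 0.05, edgeR adjusted p = 8.96e-04). A short non-coding gene and the pseudogene RPL35AP27 lie within PKP2 and have no rows of their own, so their reads cannot be told apart from those of PKP2.

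PKP3, the plakophilin found in most epithelia, had 156, 169 and 169 CPM in A431CT and 166, 172 and 161 CPM in Dsg2KO libraries. The groups overlapped, and the log2 fold change was 0.01 with a 95% interval of -0.08 to 0.11 (edgeR adjusted p = 0.866). Its sign turned when A431CT replicate 1 (-0.024) or Dsg2KO replicate 2 (-0.0089) was left out. PKP1, a plakophilin of the upper layers of stratified epithelia, had 0, 1 and 2 counts in A431CT libraries and 0 in each Dsg2KO library. Both groups were at or under the limit of 3 counts, so no fold is given.

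The ratio of PKP2 to PKP3 counts was 0.615, 0.569 and 0.544 in A431CT libraries and 0.658, 0.648 and 0.733 in Dsg2KO libraries, without overlap. The ratio of DSP to JUP counts was 0.883, 0.803 and 0.924 against 0.969, 0.874 and 1.06, and here the groups overlapped. Like the desmocollin ratio, both were chosen after the values were seen. The levels of the plaque genes together were 184.0, 187.5 and 186.7 CPM per kb in A431CT libraries and 192.1, 201.0 and 191.6 CPM per kb in Dsg2KO libraries. The groups of this sum did not overlap, with means of 186 ± 1.81 and 195 ± 5.31 CPM per kb (SD, n = 3), a difference of 0.07 on the log2 scale. No p-value is given for sums over genes that were chosen with earlier results known.

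PERP encodes a tetraspan membrane protein that desmosomes of stratified epithelia need. Its level was 416, 406 and 421 CPM in A431CT libraries and 344, 334 and 345 CPM in Dsg2KO libraries. The groups were separated by several times the range within either. The mean fell from 414 ± 7.58 to 341 ± 6.08 CPM (SD, n = 3), to 82.3% of the control, with a log2 fold change of -0.28 (SE 0.03, edgeR adjusted p = 2.83e-05).

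**Figure D3:**
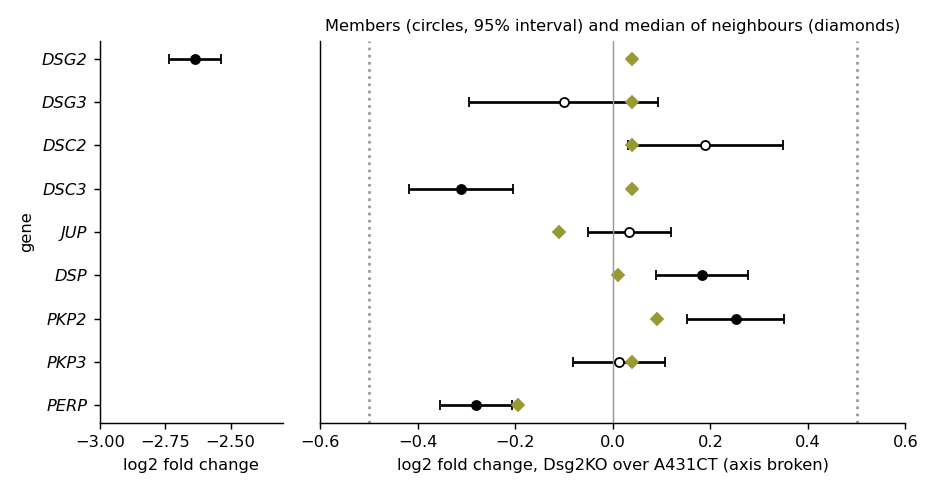
Log2 fold change of Dsg2KO over A431CT for the 9 tested genes (circles with 95% interval, filled where the adjusted p is under 0.05) and the median of the tested genes around each on its chromosome (diamonds). The axis is broken, with DSG2 at -2.64 in the left panel. Dotted lines mark 0.5 in either direction, which no gene other than DSG2 reaches.

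To ask whether a desmosomal gene differed from the genes around it, each was set beside the 20 tested genes on either side of it. The 40 tested genes around the chromosome 18 cluster had a median log2 fold change of 0.04. DSC3 lay 0.35 below this median, and 2 of the 40 genes were lower than DSC3. DSC2 lay 0.15 above the median and DSG3 0.14 below it. The nearest tested genes outside the cluster, KCTD1 (0.09, edgeR adjusted p = 0.294) and B4GALT6 (0.26, SE 0.12, edgeR adjusted p = 0.117), did not pass the test. KCTD1 (chr18:26454910-26657401) lies megabases away from DSC3, whereas B4GALT6 (chr18:31622246-31685836) lies close to DSG2. None of the 40 genes was lower than DSG2.

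PERP differed from the cluster in this respect. Of its 40 neighbours, 36 had a log2 fold change below 0, 16 were called lower and 0 higher, with a median of -0.19. PERP lay 0.086 below this median, and 14 of the 40 neighbours were lower than PERP. Against all tested genes of chromosome 6 the difference was larger, at -0.21. JUP also lay among genes that were lower in Dsg2KO cells. Of its 40 neighbours, 34 were below 0, 2 were called higher and 13 lower, and the median was -0.11. Of these 40, 35 were below JUP itself. The neighbours include the keratin genes KRT31 and KRT15. JUP lay 0.14 above the median of its neighbours and 0.089 above that of all tested genes of chromosome 17. On that chromosome, 489 of the 765 other tested genes were below 0. DSP and PKP2 lay above the median of their neighbours by 0.17 and 0.16, and these medians were 0.01 and 0.09. Against all tested genes of their chromosomes the differences were 0.25 and 0.35. Of the 40 neighbours of PKP2, 8 were called higher and 1 lower. Among all tested genes, 14.3% were called higher and 15.3% lower. The tested genes next to PKP2 on each side were called higher, by 0.25 and 0.36. PKP3, close to the end of chromosome 11, had 29 such neighbours with a median of 0.04, and differed from it by -0.026. These comparisons are descriptions, and the part of the surrounding genes' shift in the values of PERP, JUP and PKP2 was not tested.

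**Figure D4:**
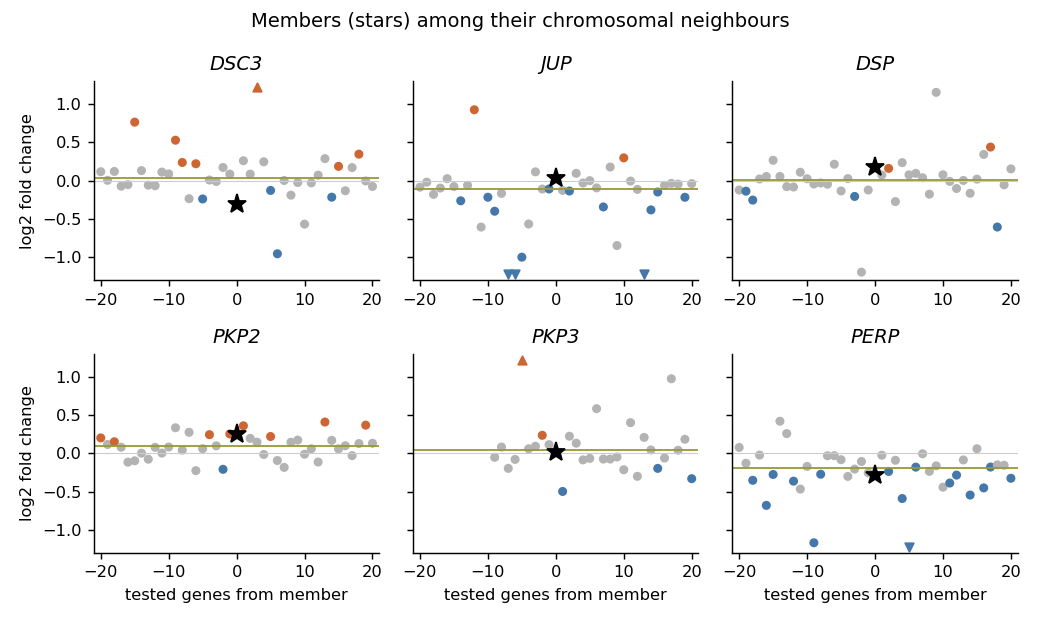
Log2 fold change of Dsg2KO over A431CT for the tested genes on either side of 6 desmosomal genes, in the order of the chromosome (orange called higher, blue called lower, grey not called; triangles mark values beyond the axis at 1.2). The star is the named gene and the horizontal line the median of its neighbours, which is -0.19 around PERP and 0.04 around DSC3.

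Genes that work with desmosomes were read from the same fit in 8 lists of 74 genes, of which 63 were tested. In all, 21 were higher and 10 lower in Dsg2KO cells and 32 did not pass, against 14.3 and 15.3% of all tested genes. The lists were written with earlier results of these data known, so this comparison is a description and not a test. The median log2 fold change over the lists was 0.09. Only KRT15 and KRT6A also passed the fold change minimum.

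Of the paralogs outside the membership, PKP4 (p0071), a plakophilin-related armadillo protein of cell borders, fell from 128 ± 9.57 to 94.8 ± 3.29 CPM (SD, n = 3), with a log2 fold change of -0.44 (edgeR adjusted p = 2.90e-05). CDSN, the corneodesmosome protein of the cornified layer, had 20 to 22 counts in A431CT and 32 to 52 counts in Dsg2KO libraries and did not pass (0.71, edgeR adjusted p = 0.0706). DSG1-AS1 and DSG2-AS1 had no row.

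Keratins, the filaments that desmosomes hold, differed in both directions. KRT8 and KRT18, the pair of simple epithelia, rose by 0.31 and 0.35 on the log2 scale (edgeR adjusted p = 4.20e-06 and 5.55e-06). The basal keratin KRT15 fell from 182 ± 29.8 to 91.0 ± 11.8 CPM (SD, n = 3; log2 fold change -1.0003, edgeR adjusted p = 3.47e-06). KRT6A, a keratin of activated keratinocytes, was at 8.44 ± 0.660 and 4.13 ± 0.825 CPM (log2 fold change -1.03, edgeR adjusted p = 5.62e-04), and its near-identical paralogs may share reads. KRT5 had a log2 fold change of -0.13 (edgeR adjusted p = 0.0115), which was lost without A431CT replicate 1 (adjusted p = 0.0624). The other 4 of 9 tested keratins did not pass.

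Among 6 cytolinkers, periplakin (PPL) rose by 0.22 (edgeR adjusted p = 0.00168), and envoplakin (EVPL, 0.13, adjusted p = 0.0452) and plectin (PLEC, 0.15, adjusted p = 0.0322) passed more narrowly. MACF1, a linker of actin and microtubules, fell by 0.25 (edgeR adjusted p = 0.00785). The EVPL call was kept in 1, the PLEC call in 2 and the MACF1 call in 5 of the 6 fits that each left out a library, with the largest adjusted p (0.161, 0.132 and 0.0501) without Dsg2KO replicate 1, A431CT replicate 1 and Dsg2KO replicate 1.

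The adherens junction genes, which share plakoglobin with desmosomes, were 4 higher, 1 lower and 4 not passing of 9 tested. The classical cadherins CDH1 (E-cadherin) and CDH3 (P-cadherin) rose by 0.28 and 0.15 (edgeR adjusted p = 4.22e-05 and 0.00610). CTNNA1 (α-catenin) rose by 0.18 and NECTIN2, a cell adhesion receptor, by 0.36 (edgeR adjusted p = 0.00200 and 3.82e-05). AFDN, the nectin-binding scaffold afadin, fell by 0.17 (edgeR adjusted p = 0.0156), a call kept in 3 of 6 fits without a library and with the largest adjusted p of 0.0665 without A431CT replicate 3.

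Of 4 tested sheddases, proteases that cut cadherin ectodomains, ADAM15 rose by 0.23 (edgeR adjusted p = 0.00114). ADAM9 (0.11, edgeR adjusted p = 0.0342) passed with all 6 libraries but in no fit without a library, where its adjusted p reached 0.0945 without Dsg2KO replicate 1. ADAM17 (-0.20, edgeR adjusted p = 0.0495) passed in 1 such fit, with 0.216 without A431CT replicate 3.

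Of 9 trafficking and membrane raft genes, the raft proteins FLOT2 and CAV1 rose by 0.25 and 0.29 (edgeR adjusted p = 4.38e-04 and 4.38e-05), and CAV2 rose by 0.13 (edgeR adjusted p = 0.0173). ATP2A2, the calcium pump that is mutated in Darier disease, fell by 0.16 (edgeR adjusted p = 0.00440). The CAV2 call was kept in 3 of 6 fits without a library, with an adjusted p of 0.0799 without Dsg2KO replicate 1.

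Of 11 regulators of desmosomes, 4 were higher and 2 lower. EGFR, a receptor kinase that A431 cells express at very high levels, had 8451 ± 343 and 9134 ± 216 CPM (SD, n = 3; log2 fold change 0.11, edgeR adjusted p = 0.00579). The small GTPase RAP1B fell by 0.25 (edgeR adjusted p = 5.01e-04). The kinases SRC (-0.17, edgeR adjusted p = 0.0158) and PRKCA (0.20, edgeR adjusted p = 0.0372) and the growth factor TGFB2 (0.50, edgeR adjusted p = 0.0381) kept their calls in 4, 2 and 2 of the 6 fits without a library, with the largest adjusted p (0.0709, 0.118 and 0.165) without Dsg2KO replicate 3, Dsg2KO replicate 1 and Dsg2KO replicate 3. The TGFB2 libraries overlapped between the groups.

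Of 13 tested transcription factors of junction genes, 3 were higher and 0 lower, and the other 10 did not pass. Those higher included GRHL1 (0.32, edgeR adjusted p = 0.00774), a Grainyhead-like factor of epidermal junction genes, and KLF4 (0.26, edgeR adjusted p = 0.00107), a factor of barrier formation.

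**Figure D5:**
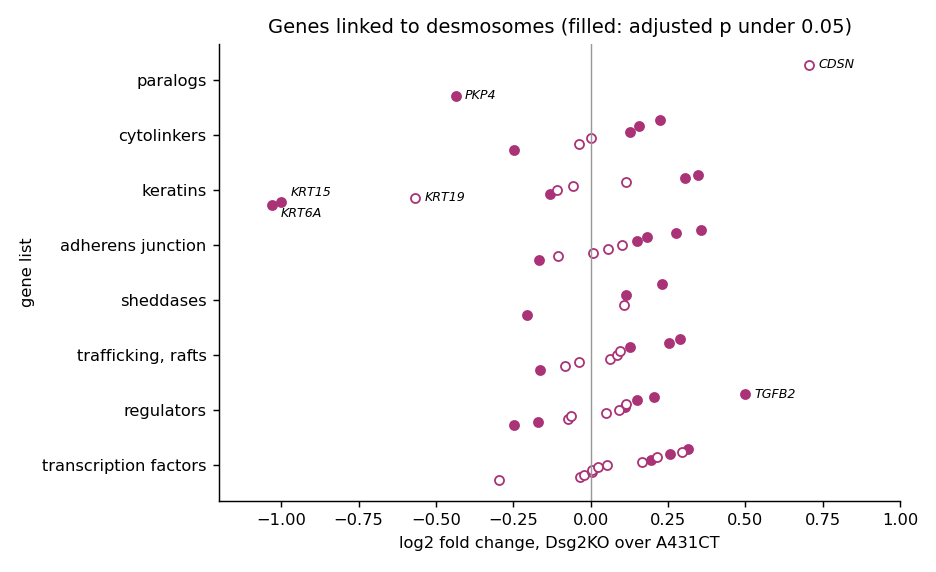
Log2 fold change of Dsg2KO over A431CT for the 63 tested genes of the 8 desmosome-related lists, a row per list and a circle per gene, filled where the adjusted p is under 0.05. Genes beyond about 0.4 are named. KRT15 and KRT6A stand near -1.0, and no other filled circle passes 0.5 in size.

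The genes whose log2 CPM followed DSG2 most closely over the 6 libraries were KRT31 (Pearson r = 0.99977), a hair keratin with 34 to 37 counts in A431CT and 3 to 4 in Dsg2KO libraries, SLC16A3 (0.99954), a lactate transporter, and MEST (0.99945), an imprinted gene. Their log2 fold changes were -3.64, -1.03 and -0.88. KRT31 lay near the limit of 3 counts in Dsg2KO libraries, so the size of its fold change (SE 0.39) is uncertain. The 6 libraries fall into 2 groups that differ in all of these genes, so the correlation mainly restates the difference between the groups.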

How the data were processed

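RNA-seq was analysed from 3 A431CT and 3 Dsg2KO libraries. Per the labels and the study's methods, the authors removed adapters and low-quality reads, mapped the read pairs to GRCh38 with CLC Genomics Workbench and deposited raw counts per gene symbol. The annotation and strand setting are not given in the sources used here. Counts were analysed in R 4.3.3 with edgeR 4.0.16 (TMM, filterByExpr with a minimum count of 10, quasi-likelihood F test, Benjamini-Hochberg adjustment over 12857 genes, prior count of 2), after the fit was tested on simulated data. The study's own test was not available. The biological coefficient of variation was 4.79%. Replicate pairs differed by more than counting error. Same-numbered libraries did not deviate together (correlations -0.0027 to 0.0539), so none were paired. GENCODE 44 placed 19478 of 21462 symbols. The members, lists and neighbour comparison were chosen with earlier results of these data known. Named were all members and paralogs, called genes of each list (at most 5, by p), the 3 genes most like DSG2, and the genes within and beside the cadherin cluster. CD68, LAMB3, SFN and COL17A1 were named after their values were seen, and 1 called gene of the transcription factor list is not reported here. Alternatives were DESeq2 1.42.0, a likelihood ratio test, other filters, scalings, fold change minimums, lengths and neighbour numbers, a replicate block and each library left out.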

Additional observations from a re-analysis of the deposited data

How the results depend on the processing

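The 5 desmosomal calls kept their direction and stayed under an adjusted p of 0.05 in all 13 other fits (DESeq2, the likelihood ratio test, other filters and scalings, the replicate block, and each of the 6 libraries left out). DSC2 passed with total counts only (0.21) and without Dsg2KO replicate 3; over the fits without a library its log2 fold change ran from 0.14 to 0.25. JUP ran from -0.0090 to 0.064 and PKP3 from -0.024 to 0.034, with the sign turning without Dsg2KO replicate 2 (-0.0090 and -0.0089) and, for PKP3, without A431CT replicate 1 (-0.024). The cause was not tested. Without a fold change minimum 3802 genes and 5 desmosomal genes passed, and with a minimum of 1, 250 genes. Of the desmosome-related genes, 31 passed with all libraries, 26 in DESeq2 and 22 to 27 with a library left out. Set against all tested genes of the chromosome, DSP differed by 0.25, PKP2 by 0.35 and PERP by -0.21, and PKP3 differed by 0.062 from 10 genes on each side. The labels do not say whether same-numbered libraries share more than a number. With the replicate number as a block, 769 genes passed both thresholds in place of 775, the same number of desmosomal genes passed (5), and 32 related genes passed. Depth limits the low cadherins: DSG3 had 233 to 289 counts, and DSC1, DSG1, DSG4 and PKP1 could not be tested.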
